A study of Mus musculus with 16 samples.

Results

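The mRNAs of 10 tubulin genes were followed through protrusions and cell bodies of mouse fibroblasts: Tuba1a, Tuba1b and Tuba1c (alpha-tubulin), Tubb5, Tubb2a, Tubb2b, Tubb3, Tubb4b and Tubb6 (beta-tubulin) and Tubg1 (gamma-tubulin). The genes were chosen by name, and all 10 were listed among the 13015 genes of the deposited table. The study used NIH/3T3 cells, an immortal line of mouse embryo fibroblasts, to ask which RNAs need APC, the microtubule-binding tumor suppressor adenomatous polyposis coli, to reach protrusions. Serum-starved cells carrying a control siRNA (siControl) or an siRNA to Apc (siAPC) sat for 2 h on filters with pores of 3.0 µm and then extended protrusions for 1 h toward lysophosphatidic acid in the lower chamber, before fixation for 10 min in 0.3% paraformaldehyde. Scraping the underside of the filter gave protrusions (Ps), and scraping the upper side gave cell bodies (CB). With either siRNA in either fraction there were 4 groups, and each held 4 libraries of total RNA, all from the 1 cell line. The study describes its replicates as independent, and the labels give no culture or batch for them.

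Microtubules are hollow polymers of alpha- and beta-tubulin dimers, and gamma-tubulin seeds their growth. Mammals carry several genes for alpha- and beta-tubulin, the isotypes, whose proteins differ mostly in their acidic C-terminal tails. Cells also adjust tubulin mRNA to the amount of free tubulin: when dimers are in excess, the factor TTC5 binds the first residues of tubulin as it leaves the ribosome, and the mRNA being translated is degraded. In migrating fibroblasts, stable microtubules that point to the leading edge carry alpha-tubulin from which the last residue, a tyrosine, has been removed (detyrosinated microtubules).

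The beginning of the coding sequence is shown because in alpha- and beta-tubulin it encodes the residues that TTC5 reads. Tubg1, a gamma-tubulin, is listed for comparison. Each line gives the first 12 coding bases of the mRNA, 5′ to 3′, from GENCODE release M21, with codons 2 to 4 in capitals. Tubb6 is not shown here.
Tuba1a: atgCGTGAGTGC
Tuba1b: atgCGTGAGTGC
Tuba1c: atgCGTGAGTGC
Tubb5: atgAGGGAAATC
Tubb2a: atgCGCGAGATC
Tubb2b: atgCGAGAGATC
Tubb3: atgAGGGAGATC
Tubb4b: atgAGGGAGATC
Tubg1: atgCCGAGAGAA
The 3 alpha-tubulin mRNAs were identical over these bases, and Tubb3 and Tubb4b were identical to each other. Counted from 1 at the first base of the start codon, Tubb2a differed from Tuba1a at 3 positions (T6C, T10A and G11T), Tubb5 at 5 and Tubg1 at 8.

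The libraries held 13466225 to 20296087 reads in listed genes, of which 25400 to 52323 came from the 10 tubulin genes. The targeted gene matched the siRNA labels: Apc fell to 31.3% of its siControl level in CB (log2 fold change -1.67, SE 0.25, adjusted p = 0.000142) and to 27.9% in Ps (-1.84, SE 0.25, adjusted p = 3.11e-05). Of 10 fibroblast markers 9 were listed, with a summed level (CPM, reads of a gene on a common library scale) of 37199 to 40561 in siControl CB, 47444 to 52540 in siAPC CB, 22560 to 24833 in siControl Ps and 27601 to 30097 in siAPC Ps. This sum was lower in Ps, and higher with siAPC in both fractions with no overlap, and its part in the tubulin values was not tested. The highest single marker value was 13.62 log2 CPM in siControl CB and 14.00 in siAPC CB. In Ps it was 13.08 with siControl and 12.88 with siAPC, so the markers did not all follow the sum in Ps. Of the markers of other cell types, 0 of 7 neuronal, 2 of 5 epithelial, 2 of 5 immune, 1 of 4 endothelial and 1 of 4 muscle genes were listed, with summed levels of at most 14.6 CPM, so Tubb3, a gene used to mark neurons, was measured where no neuronal marker was listed. Ps libraries held a larger share of mitochondrial reads than CB libraries (3.23% ± 0.647 against 1.57% ± 0.256 in siControl, 2.55% ± 0.316 against 1.52% ± 0.109 in siAPC; SD, n = 4). A trend with GC content set 1 library of each group apart (Spearman correlation across 9878 genes from -0.525 to -0.645, GC-rich genes being lower): siControl CB replicate 3 and replicate 2 of the other groups. The other libraries ran from -0.039 (siAPC Ps replicate 1) to 0.535 (siAPC CB replicate 3), so some had a trend of similar size in the other direction. Below, a GC trend means the negative trend of the 4 libraries set apart. The longest transcripts of the 10 genes were 51.2% to 57.9% GC, above the median of 50.1% over all genes, and the library with the GC trend held the lowest value of its group in 36 of 40 combinations of a tubulin gene and a group, beside 36% of such combinations over all genes. Calls of tubulin mRNAs and list counts are also given without these 4 libraries where they changed. The part of GC content in the tubulin values was not tested.

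The genes lie on several chromosomes (GRCm38, protein coding). Tuba1b, Tuba1a and Tuba1c are neighbours on chromosome 15 (98931425 to 98934565, minus strand; 98949837 to 98953703, minus; 99029891 to 99038110, plus), and Tubb2a and Tubb2b are neighbours on chromosome 13 (34074274 to 34078007 and 34126748 to 34130466, both minus). Tubb5 lies on chromosome 17 (35833921 to 35838306, minus), Tubb4b on chromosome 2 (25222160 to 25224702, minus), Tubb3 on chromosome 8 (123411424 to 123422015, plus), Tubb6 on chromosome 18 (67390717 to 67402749, plus) and Tubg1 on chromosome 11 (101119938 to 101126419, plus). Gene copies limit how well reads can be assigned. Of all stretches of 50 bases in the exons, 75.5% in Tuba1a, 75.1% in Tuba1b and 52.7% in Tuba1c also occurred in another annotated gene, often each other or a pseudogene. The same held for 49.6% of Tubb2a and 36.9% of Tubb2b. Tubb5 shared 0.0892%, and Tubb3 and Tubb6 shared 0%. The reads of the study were paired and longer than 50 bases, so these are not shares of ambiguous reads. How reads matching several genes were counted is not stated, so values of the alpha-tubulin genes, Tubb2a and Tubb2b are uncertain, while those of Tubb5, Tubb3 and Tubb6 do not have this limit. Tubb4b shared 41.3% and Tubg1 11.1% of its stretches, with no gene that the table lists, and the unknown counting of such reads limits their values too.

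Levels of different genes were compared as CPM per kilobase of exon. In siControl CB the order of mean levels was Tubb5 (249 ± 29.8 CPM per kb, SD, n = 4), Tuba1a (204, from 180 to 224), Tuba1b (191 ± 21.7), Tubb2a (87.0 ± 4.73), Tubb4b (69.8 ± 4.43), Tuba1c (45.7 ± 2.74), Tubb6 (27.4 ± 1.13), Tubg1 (26.1 ± 1.91), Tubb2b (6.51 ± 0.807) and Tubb3 (4.18 ± 0.542). Neighbours overlapped in this order from Tubb5 to Tuba1b and between Tubb6 and Tubg1, and the other neighbours did not. These fibroblasts thus held mostly Tubb5, the beta-tubulin isotype found in most cell types, and the alpha-tubulin genes Tuba1a and Tuba1b, while Tubb2b and Tubb3, which are abundant in neurons, were at the low end. In siControl Ps the means of Tuba1b (246 ± 22.5 CPM per kb) and Tuba1a (208 ± 13.1) changed places, with overlapping libraries.

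**Figure D1:**
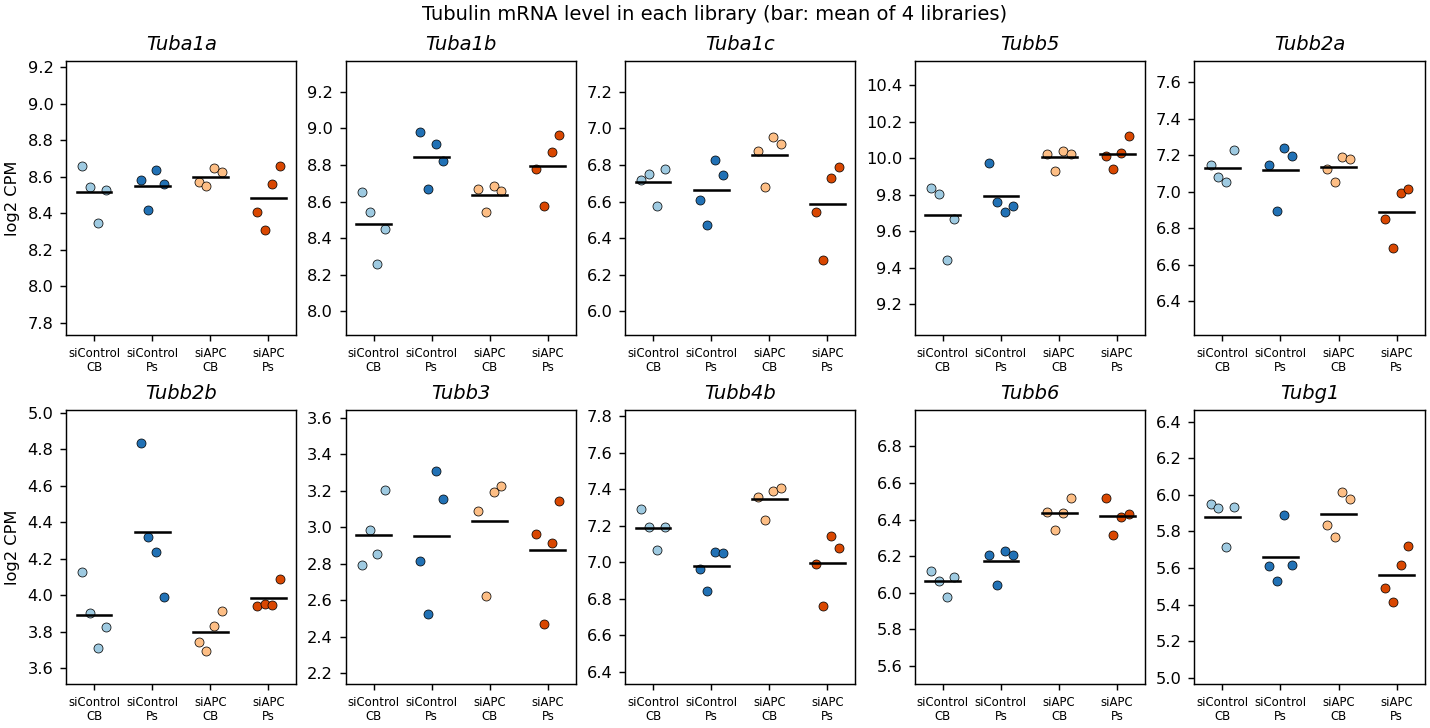
Level of each of the 10 tubulin mRNAs (vertical axis, log2 CPM, the same span of units in every panel but different positions) in the 4 libraries of each group (points, with replicates 1 to 4 from left to right) with the group mean (bar). Tuba1b is higher in siControl Ps than in siControl CB in every library, Tubb4b is lower in Ps with both siRNAs, and Tubb6 is higher in every siAPC library than in any siControl library of the same fraction. The shares of all genes without overlap are given in the text.

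The first comparison, Ps against CB in siControl, asked how tubulin mRNA levels, relative to other mRNAs, differed between fractions in cells with normal Apc. On the deposited scale tubulin mRNAs had similar levels in Ps and CB, and the dependence on the scale is given below. Tuba1b and Tubb2b were modestly higher in Ps, Tubb4b and Tubg1 were slightly lower, and the other 6 did not pass the adjusted threshold. None reached the enrichment rule of the study, which asks for more than a 2-fold rise and an unadjusted p under 0.05 and which 7.19% of all genes met. By adjusted p below 0.05 (limma, Benjamini-Hochberg over 13015 genes), 29.1% of all genes were higher and 31.2% lower in Ps. For a set of 10 genes, 2 higher and 2 lower are near those shares. The 10 log2 fold changes ran from -0.22 to 0.45 with a median of 0.01, beside a median of -0.0009 over all genes. All Ps libraries lay above all CB libraries for 1 of 10 tubulin mRNAs and below for 1 of 10, beside 24% and 26.5% of all genes.

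Tuba1b, an alpha-tubulin isotype of most dividing cells, measured 8.65, 8.54, 8.26 and 8.45 log2 CPM in replicates 1 to 4 of siControl CB and 8.98, 8.67, 8.91 and 8.82 in those of siControl Ps. Every Ps library lay above every CB library. The difference was 0.37 (SE 0.09, adjusted p = 0.00154), a fold change of 1.29. Tuba1a, its neighbour and the main alpha-tubulin of young neurons, ranged from 8.34 to 8.66 in CB and from 8.42 to 8.64 in Ps, with a difference of 0.03 (SE 0.08, adjusted p = 0.735). Tuba1c, a less abundant isotype, ranged from 6.58 to 6.78 in CB and from 6.47 to 6.83 in Ps (difference -0.04, SE 0.10, adjusted p = 0.727). Of the 3 alpha-tubulin mRNAs, Tuba1b alone passed the threshold, and the difference between these genes, which share sequence, was not tested.

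Among the beta-tubulin mRNAs, Tubb2b measured 4.13, 3.90, 3.71 and 3.82 log2 CPM in siControl CB and 4.83, 4.32, 4.24 and 3.99 in siControl Ps. Ps replicate 1 stood highest, and Ps replicate 4 lay below CB replicate 1. The difference was 0.45 (SE 0.13, adjusted p = 0.00656), or 1.37-fold, from 225 to 354 reads per library, and it fell to 0.29 (adjusted p = 0.0271) without siControl Ps replicate 1. Tubb4b, a broadly expressed isotype that also builds cilia, measured 7.29, 7.19, 7.07 and 7.19 in CB and 6.96, 6.84, 7.06 and 7.05 in Ps. All Ps libraries were below all CB libraries, by 0.21 on average (log2 fold change -0.21, SE 0.08, adjusted p = 0.0281), leaving 86.7% of the CB level. The call was lost without any 1 of siControl CB replicates 1, 2 or 4 or siControl Ps replicates 1 or 2, with adjusted p up to 0.0966 and values from -0.25 to -0.16 over all libraries left out.

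The other beta-tubulin mRNAs passed no threshold in siControl. Tubb5 ranged from 9.44 to 9.84 log2 CPM in CB and from 9.71 to 9.97 in Ps (difference 0.11, SE 0.08, adjusted p = 0.263), and was called lower under quantile normalization (-0.19, adjusted p = 0.00465) and with listed reads alone as the scale (-0.19, adjusted p = 0.00464). Tubb2a, the closest relative of Tubb2b, ranged from 7.05 to 7.23 and from 6.89 to 7.24 (difference -0.01, SE 0.08, adjusted p = 0.924). Tubb6, an isotype of low abundance in most tissues, ranged from 5.98 to 6.12 and from 6.04 to 6.23 (difference 0.11, SE 0.06, adjusted p = 0.135). Tubb6 passed the threshold once the 4 GC-trend libraries were removed (0.12, adjusted p = 0.0479) and without siControl Ps replicate 2 alone (0.15, adjusted p = 0.0434). It was also called higher under quantile normalization (0.16, adjusted p = 0.0108), but lower with listed reads alone as the scale (-0.19, adjusted p = 0.00821), a scale that also moved the median of all genes. Tubb3 had the widest error, from 70 to 184 reads per library over all groups, with a difference of -0.01 (SE 0.18, adjusted p = 0.980, 95% interval from -0.38 to 0.37).

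Tubg1, the gamma-tubulin of the centrosome, measured 5.95, 5.93, 5.72 and 5.93 log2 CPM in siControl CB and 5.61, 5.53, 5.89 and 5.62 in siControl Ps. CB replicate 3 and Ps replicate 3 overlapped, and the other Ps libraries were below all CB libraries. The difference was -0.22 (SE 0.09, adjusted p = 0.0380), leaving 85.9%. It did not pass when any 1 of siControl CB replicates 1, 2 or 4 or siControl Ps replicates 1, 2 or 4 was left out (adjusted p up to 0.116), under quantile normalization (-0.14, adjusted p = 0.132) or with no intensity trend (adjusted p = 0.0594).

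The scaling between libraries matters to all of these values. With listed reads alone as the scale, the median over all genes moved by -0.30 in this comparison, and Tuba1b was at 0.07 (adjusted p = 0.390) and Tubb2b at 0.16 (adjusted p = 0.247), still above that median, while 7 of the 10 tubulin mRNAs were called lower, beside 47.6% of all genes lower and 15.4% higher on this scale. The values of Tuba1a, Tubb5 and Tubb6 (-0.26, -0.19 and -0.19) were below 0 there and above the median of all genes, -0.30. As a share of all listed reads the 10 genes together held 0.224% ± 0.0102 in siControl CB and 0.196% ± 0.00610 in siControl Ps, and 0.262% ± 0.00933 and 0.230% ± 0.0169 in siAPC CB and siAPC Ps (SD, n = 4).

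The second comparison, Ps against CB in siAPC, asked the same of cells with reduced Apc. Here 0 of 10 tubulin mRNAs were called higher in Ps and 4 were called lower: Tuba1c, Tubb2a, Tubb4b and Tubg1. Over all genes 29.8% were higher and 30.9% lower, so 4 of 10 lower is near the background and 0 of 10 higher is below it. With 10 genes these counts are small, and the gap was not tested. None met the enrichment rule, against 7.67% of all genes. The median log2 fold change of the 10 was -0.14, beside 0.01 over all genes. All Ps libraries lay above all CB libraries for 1 of 10 and below for 3 of 10, beside 28.2% and 30.4% of all genes.

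Tubb4b was the lowest relative to CB in siAPC. It measured 7.36, 7.23, 7.39 and 7.41 log2 CPM in siAPC CB and 6.99, 6.76, 7.15 and 7.08 in siAPC Ps, again with no overlap. The difference was -0.35 (SE 0.08, adjusted p = 0.000701), leaving 78.3%, and passed in all 24 alternatives. Tubb2a measured 7.12, 7.05, 7.19 and 7.18 in CB and 6.85, 6.69, 6.99 and 7.01 in Ps. Its groups did not overlap either, with a difference of -0.25 (SE 0.08, adjusted p = 0.0105), leaving 84.1%, and this call held in all 24 alternatives.

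Tubg1 measured 5.83, 5.77, 6.01 and 5.98 log2 CPM in siAPC CB and 5.49, 5.41, 5.62 and 5.72 in siAPC Ps, with all Ps libraries below all CB libraries. Its difference was -0.34 (SE 0.09, adjusted p = 0.00274), leaving 79.2%, and it passed in all 24 alternatives, unlike the siControl value. Tuba1c measured 6.87, 6.68, 6.96 and 6.91 in CB and 6.54, 6.28, 6.73 and 6.79 in Ps. CB replicate 2 lay within the range of Ps. Taken as pairs of equal replicate number, Tuba1c was lower in Ps in 4 of 4 siAPC pairs, by values from -0.40 to -0.12. The difference was -0.27 (SE 0.10, adjusted p = 0.0232), leaving 82.8%, and the call was lost without any 1 of siAPC CB replicates 3 or 4 or siAPC Ps replicates 1 or 2 (adjusted p up to 0.109, with -0.17 without siAPC Ps replicate 2), and under quantile normalization (-0.19, adjusted p = 0.0547).

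The mRNAs called higher in Ps of siControl did not pass in siAPC, and the test of that difference is the interaction, given after these values. Tuba1b measured 8.67, 8.55, 8.68 and 8.66 log2 CPM in siAPC CB and 8.78, 8.58, 8.87 and 8.96 in siAPC Ps, where Ps replicate 2 fell among the CB libraries. Its difference was 0.16 (SE 0.09, adjusted p = 0.134), and it passed once the 4 GC-trend libraries were removed (0.20, adjusted p = 0.0134), without siAPC Ps replicate 2 alone (0.23, adjusted p = 0.0314) and under quantile normalization (0.17, adjusted p = 0.0310). Tubb2b measured 3.75, 3.69, 3.83 and 3.92 in CB and 3.94, 3.95, 3.95 and 4.09 in Ps, with every Ps library above every CB library and a difference of 0.19 (SE 0.13, adjusted p = 0.235). Taken as pairs of equal replicate number, both were higher in Ps in 4 of 4 siAPC pairs, by 0.03 to 0.31 for Tuba1b and by 0.12 to 0.26 for Tubb2b. With the replicate number as a block within each siRNA, neither passed (limma adjusted p = 0.0803 for Tuba1b and 0.0883 for Tubb2b). That fit shared its estimate of the spread with siControl, where equal numbers were not taken as pairs. A paired fit of siAPC alone was not made, so these p-values do not settle the paired comparison. The remaining members gave -0.12 (SE 0.08, adjusted p = 0.205) for Tuba1a, 0.02 (SE 0.08, adjusted p = 0.836) for Tubb5 (called lower under quantile normalization, at -0.48, and with listed reads alone as the scale, at -0.13), -0.16 (SE 0.18, adjusted p = 0.459) for Tubb3 and -0.02 (SE 0.06, adjusted p = 0.844) for Tubb6. Tubb3 was lower in Ps in 4 of 4 siAPC pairs, by values from -0.28 to -0.08, and passed in 0 of 24 alternatives.

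**Figure D2:**
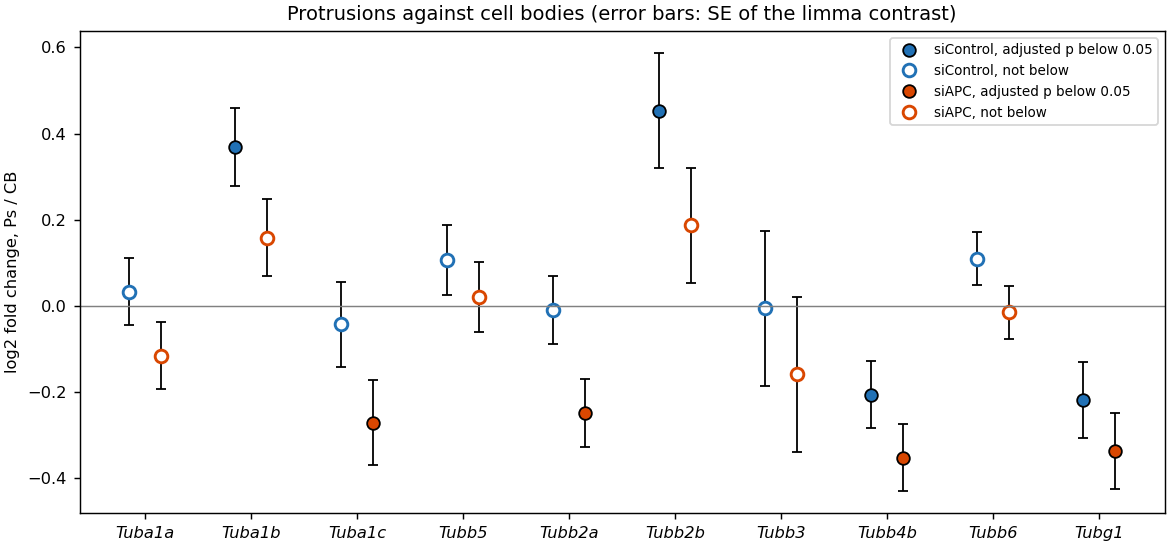
Log2 fold change of Ps over CB (vertical axis) for each tubulin mRNA (horizontal axis) in siControl (blue) and siAPC (orange), with error bars of 1 SE, filled where the adjusted p was below 0.05. All 10 siAPC points lie below their siControl points, by 0.09 (Tubb5) to 0.27 (Tubb2b), and none of these gaps passed the test of the interaction.

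The interaction, log2(Diff FC), tests whether the Ps over CB ratio differs between siAPC and siControl. No tubulin mRNA passed at adjusted p below 0.05: 0 of 10 were called in either direction, beside 0% of all genes called higher and 0.0231% called lower. The study divided its protrusion-enriched RNAs by cutoffs on log2(Diff FC) and a p-value. Those cutoffs were not applied here, so these counts do not assign genes to its APC-dependent or APC-independent groups. All 10 values were below 0, from -0.27 for Tubb2b to -0.09 for Tubb5, with a median of -0.15, whereas 48.9% of all genes were below 0 and the median of all genes was 0.005. Their size depended on single libraries. With 1 library left out, the value ran from -0.39 to -0.10 for Tubb2b, -0.29 to -0.02 for Tubb3 and -0.14 to -0.005 for Tubb5. Over all 24 alternatives Tubb5 reached -0.29. The smallest unadjusted p of limma was that of Tubb2a (-0.24, SE 0.11, unadjusted p = 0.0452, adjusted p = 0.981), and 1 of 10 tubulin mRNAs was below 0.05 unadjusted, beside 3.78% of all genes. The interval of the difference for Tuba1b ran from -0.48 to 0.05 and that for Tubb4b from -0.38 to 0.08, so both span 0 and also reach sizable shifts toward cell bodies. That for Tubb2a, not adjusted for the number of genes, ran from -0.47 to -0.006 and did not span 0. With listed reads alone as the scale, the median over all genes moved by 0.14, to 0.15, and Tubb5 (0.06), Tubb6 (0.02) and Tubg1 (0.02) were above 0, while all 10 values were below that median. The 10 genes share libraries and are not independent of each other.

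The third comparison, siAPC against siControl within a fraction, asked whether the amount of tubulin mRNA differed with Apc reduced. In CB, Tubb5 and Tubb6 were higher with siAPC and no tubulin mRNA was lower. Over all genes 7.52% were higher and 5.87% lower, so 2 of 10 higher is above the background of the table, a gap of few genes that was not tested. In Ps, Tubb5 and Tubb6 were again higher and Tubb2a was lower, 2 and 1 of 10, beside 10.7% of all genes higher and 11.2% lower. In CB all siAPC libraries lay above all siControl libraries for 2 of 10 and below for 0, beside 11.1% and 9.73% of all genes. The counts in Ps were 1 and 0 of 10, beside 10.9% and 11.6% of all genes. Both comparisons use separate libraries, 8 in CB and 8 in Ps. In bulk material such as this, a different level in each cell cannot be told apart from a different mix of cells or cell parts.

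Tubb6 measured 6.12, 6.06, 5.98 and 6.08 log2 CPM in siControl CB and 6.44, 6.34, 6.44 and 6.52 in siAPC CB. In Ps it measured 6.21, 6.04, 6.23 and 6.20 with siControl and 6.52, 6.32, 6.41 and 6.43 with siAPC. The siAPC libraries lay above the siControl libraries in both fractions, with no overlap. The difference was 0.37 (SE 0.06, adjusted p = 0.000345) in CB, or 1.30-fold, and 0.25 (SE 0.06, adjusted p = 0.00692) in Ps, or 1.19-fold. Both calls held in all 24 alternatives, with values from 0.34 to 0.40 in CB and from 0.21 to 0.41 in Ps. Tubb6 shares no stretch of 50 bases with another gene. The summed fibroblast markers were also higher in the same siAPC libraries, though the markers did not all follow the sum in Ps, as given above.

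Tubb5 measured 9.84, 9.80, 9.44 and 9.66 log2 CPM in siControl CB and 10.02, 9.93, 10.04 and 10.02 in siAPC CB, again with no overlap. The difference was 0.32 (SE 0.08, adjusted p = 0.0125), or 1.24-fold, and held in all 24 alternatives. Its size ran from 0.23 without siControl CB replicate 3 to 0.56 under quantile normalization, and was 0.26 (adjusted p = 0.0231) once the 4 GC-trend libraries were removed. In Ps it measured 9.97, 9.76, 9.71 and 9.74 with siControl and 10.01, 9.94, 10.03 and 10.12 with siAPC. Only siAPC Ps replicate 2 fell below the highest siControl library, replicate 1. By equal replicate number, Tubb5 was higher in siAPC Ps than in siControl Ps in 4 of 4 pairs, by 0.04 to 0.38. The Ps difference was 0.23 (SE 0.08, adjusted p = 0.0484), or 1.17-fold. This call sat at the threshold and was lost in 12 of 24 alternatives: without siControl CB replicate 4, any siAPC CB replicate, siControl Ps replicate 2, 3 or 4 or siAPC Ps replicate 1, 3 or 4 (adjusted p up to 0.132), and with no intensity trend.

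Tubb2a was lower with siAPC in Ps. From the library values above, siAPC Ps (6.69 to 7.01) overlapped siControl Ps (6.89 to 7.24), and the difference was -0.23 (SE 0.08, adjusted p = 0.0420), leaving 85.2%. By equal replicate number, siAPC Ps was lower than siControl Ps in 4 of 4 pairs, by values from -0.30 to -0.18. With that number as a block within each fraction the limma adjusted p was 0.00420. That fit shared its estimate of the spread with CB, where equal numbers were not taken as pairs. The call was lost in 12 of 24 alternatives, among them scaling to total reads (-0.07, adjusted p = 0.571) and leaving out siControl CB replicate 1, siControl Ps replicate 1, 3 or 4, siAPC CB replicate 1, 3 or 4, or siAPC Ps replicate 1 or 2 (adjusted p up to 0.142). In CB the same mRNA gave 0.01 (SE 0.08, adjusted p = 0.961). Its relative Tubb2b gave -0.36 in Ps (SE 0.13, adjusted p = 0.0595), which passed without siControl Ps replicate 4 (-0.48, adjusted p = 0.0132) or siControl CB replicate 3 (adjusted p = 0.0491), and was -0.20 (adjusted p = 0.217) without siControl Ps replicate 1.

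The other tubulin mRNAs did not pass with siAPC in either fraction. In CB their values ran from -0.10 (SE 0.13) for Tubb2b to 0.16 (SE 0.09, adjusted p = 0.271) for Tuba1b and 0.16 (SE 0.08, adjusted p = 0.194) for Tubb4b. In Ps, Tuba1a gave -0.07 (SE 0.08), Tuba1b -0.05 (SE 0.09), Tuba1c -0.08 (SE 0.10), Tubb4b 0.02 (SE 0.08) and Tubg1 -0.10 (SE 0.09). No alpha-tubulin mRNA was called with siAPC, with a 95% interval for Tuba1a in CB from -0.08 to 0.24.

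**Figure D3:**
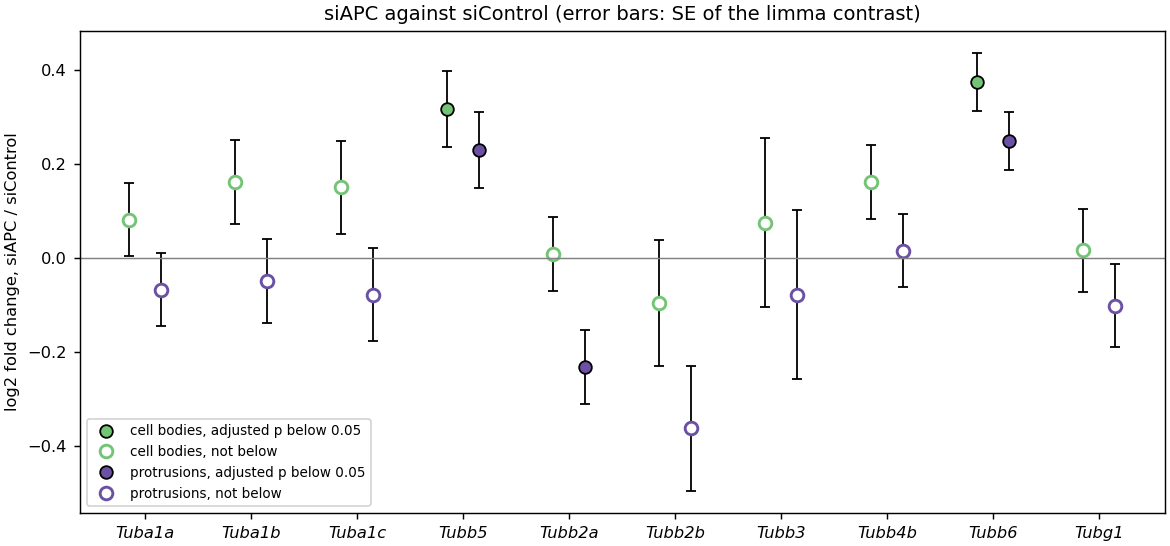
Log2 fold change of siAPC over siControl (vertical axis) for each tubulin mRNA (horizontal axis) in cell bodies (green) and protrusions (purple), with error bars of 1 SE, filled where the adjusted p was below 0.05. Tubb6 and Tubb5 stand above 0 in both fractions, and Tubb2a (filled) and Tubb2b (open) are the lowest points in protrusions.

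The share of each isotype within its family is not changed by a scaling that multiplies a whole library by 1 factor, unlike quantile normalization, under which Tubb5 was lower in Ps as given above. It is given as a description with no test. Tuba1b made up 42.1% ± 0.979 (SD, n = 4) of alpha-tubulin mRNA (CPM per kb of Tuba1a, Tuba1b, Tuba1c and Tuba4a) in siControl CB and 47.9% ± 1.32 in siControl Ps. The lowest Ps library (47.1%) was above the highest CB library (43.1%). With siAPC the shares were 43.3% ± 0.536 in CB and 48.3% ± 0.617 in Ps, again with no overlap (at most 44.1% in CB and at least 47.8% in Ps). Tuba1a had the smaller share in Ps, from 45.0% ± 0.486 in CB to 40.5% ± 0.844 in Ps of siControl and from 43.8% ± 0.766 to 40.4% ± 0.672 in siAPC, as did Tuba1c, from 10.1% ± 0.637 to 8.66% ± 0.595 and from 10.3% ± 0.445 to 8.54% ± 0.400. The share of Tuba1b thus did not overlap between fractions with either siRNA, while siAPC Ps and siControl Ps differed by less than 1 SD.

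Within beta-tubulin (7 listed genes), Tubb5 made up 55.8% ± 2.28 of siControl CB and 58.3% ± 2.82 of siControl Ps, then 59.3% ± 0.553 and 63.3% ± 1.26 of the same fractions with siAPC (SD, n = 4). The siAPC Ps libraries, from 61.9% to 64.9%, were above all other libraries, of which the highest was 60.7%. Tubb2a was lower in each group along the same order, at 19.6% ± 1.53, 18.9% ± 1.70, 16.8% ± 0.206 and 14.9% ± 0.635, and no siAPC library reached the lowest siControl library of its fraction (18.2% in CB and 17.2% in Ps). Taken per read, without division by exon length, the mean Tubb2a shares were 11.7%, 11.1%, 9.77% and 8.47% in that order. Tubb4b made up 15.7% ± 0.506 and 13.2% ± 0.993 in CB and Ps of siControl, and in siAPC it ran from 14.6% to 15.2% in CB and averaged 12.4% ± 0.791 in Ps, lower in Ps with both siRNAs. Tubb6 held 6.18% ± 0.305, 6.45% ± 0.324, 6.82% ± 0.174 and 7.11% ± 0.415 in the same order of groups, and Tubb2b and Tubb3 at most 1.96% ± 0.408 and 0.944% ± 0.137. The summed beta-tubulin level was 445 ± 37.5, 459 ± 28.5, 521 ± 20.5 and 495 ± 31.0 CPM per kb in that order, and the summed alpha-tubulin level was 453 ± 42.5, 514 ± 38.6, 491 ± 19.5 and 494 ± 55.2.

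**Figure D4:**
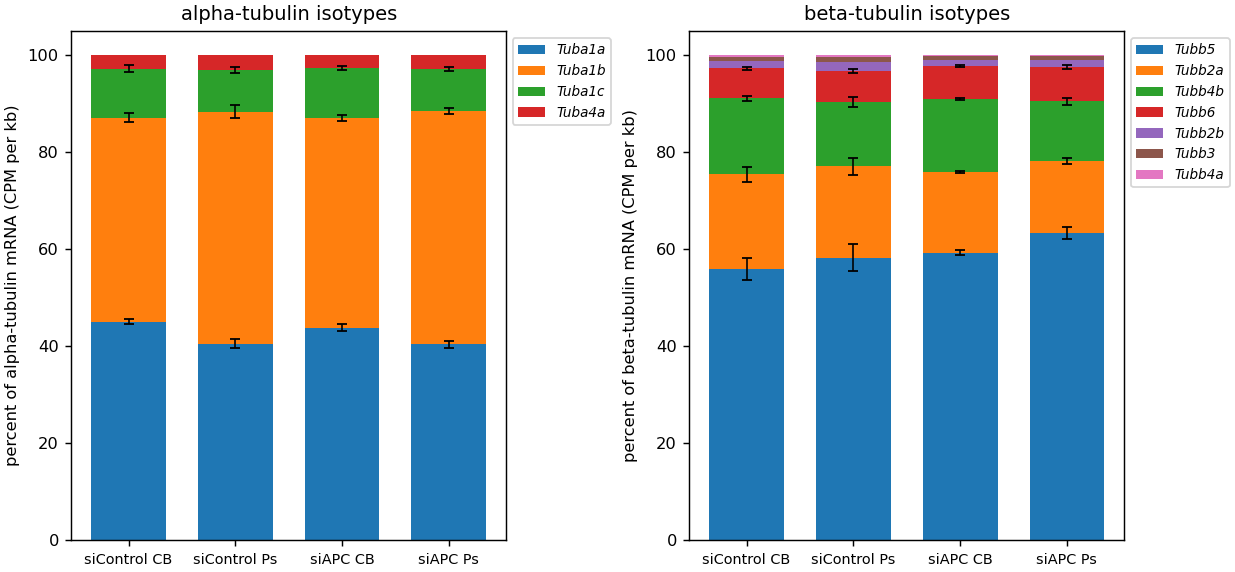
Mean percent of alpha-tubulin mRNA (left) and beta-tubulin mRNA (right) contributed by each listed isotype, from CPM per kb, in the 4 groups, with error bars of 1 SD over 4 libraries for isotypes above 5%. Tuba1b (orange, left) takes a larger part in both Ps bars, and Tubb5 (blue, right) takes its largest part in siAPC Ps, at 63.3%.

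Of 10 further tubulin genes looked for, 4 were listed: Tuba4a, Tubb4a, Tubd1 and Tube1. Tuba4a, an alpha-tubulin whose gene does not encode the final tyrosine, was higher in Ps of siControl (0.31, SE 0.08, adjusted p = 0.00223), whereas with listed reads alone as the scale 0 of these 4 genes were called higher in that comparison and 1 lower, beside 15.4% and 47.6% of all genes. Tubb4a, a beta-tubulin of the brain, was lower with siAPC in CB (-0.76, SE 0.17, adjusted p = 0.00407) and in Ps (-0.66, SE 0.17, adjusted p = 0.00751), from only 25 to 55 reads per library, and was higher in Ps of siAPC (0.42, SE 0.17, adjusted p = 0.0360), where 0 of these 4 were called with listed reads alone as the scale, beside 21.5% of all genes higher and 39.3% lower. Without the 4 GC-trend libraries, 1 of the 4 was also lower in Ps of siControl, beside 31.6% of all genes.

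Among the proteins that fold tubulin, most mRNAs of the CCT and prefoldin lists were called higher in Ps, where 29.1% of all genes were higher and 31.2% lower in siControl. All 8 subunits of CCT, the chaperonin that folds alpha- and beta-tubulin, were listed, and in siControl 7 were higher in Ps and 0 lower (median 0.63), led by Cct4 (0.98, SE 0.10, adjusted p = 7.83e-08), Tcp1 (0.91, SE 0.07, adjusted p = 3.84e-09), Cct8 (0.72) and Cct2 (0.64). In siAPC 6 were higher and 0 lower (median 0.51). All 6 subunits of prefoldin, which hands new tubulin chains to CCT, were higher in Ps with either siRNA (medians 0.71 and 0.80), led in siControl by Pfdn1 (1.20, SE 0.08, adjusted p = 5.81e-10) and Pfdn5 (1.17, SE 0.08, adjusted p = 2.93e-10). Of 7 folding cofactors, which join alpha- and beta-tubulin into dimers, 3 were higher and 1 lower in siControl: Tbca (1.47, SE 0.09, adjusted p = 1.67e-10), which holds folded beta-tubulin, Arl2 (0.40) and Tbcb (0.37) were higher and Tbcc (-0.32) lower. In siAPC 4 cofactors were higher and 2 lower. With listed reads alone as the scale, 5 CCT mRNAs were higher and 1 lower in Ps of siControl (Cct3 and Cct7 changed sign, to -0.001 and -0.08), 4 prefoldin mRNAs were higher and 0 lower, and 1 cofactor was higher and 2 lower, beside 15.4% of all genes higher and 47.6% lower on that scale. On the same scale in siAPC, 5 CCT mRNAs, 6 prefoldin mRNAs and 2 cofactors were higher and 2 cofactors lower, beside 21.5% of all genes higher and 39.3% lower. Without the 4 GC-trend libraries, 8 CCT mRNAs were higher in siControl, and 4 cofactors were higher and 2 lower, while in siAPC 3 cofactors were higher and 2 lower, beside 30.7% and 30.1% of all genes higher and 31.6% and 30.9% lower in siControl and siAPC. Under siAPC the CCT mRNAs were lower in Ps in 6 of 8 cases and in CB in 2 of 8 (Cct6a -0.24 and Cct2 -0.21), beside 11.2% and 5.87% of all genes lower, with medians of -0.27 and -0.21 beside -0.02 and -0.04 over all genes. The largest of these in Ps were Cct2 (-0.32, SE 0.06, adjusted p = 0.000432), Cct4 (-0.32), Tcp1 (-0.29) and Cct5 (-0.28). Prefoldin had 1 lower in Ps (Pfdn5, -0.34), as did the cofactors (Arl2, -0.34), and neither list had a call in CB. These counts depended on the setting. With listed reads alone as the scale, 2 CCT mRNAs were lower in Ps and 3 in CB, 3 prefoldin mRNAs were higher and 1 lower in Ps, and 1 prefoldin mRNA and 1 cofactor were lower in CB, beside 22.6% of all genes higher and 4.23% lower in Ps and 5.12% lower in CB. Under quantile normalization 3 CCT mRNAs were lower in Ps and 3 in CB, with 1 prefoldin mRNA and 1 cofactor lower in CB, beside 10.8% of all genes lower in Ps and 6.53% in CB. Without the 4 GC-trend libraries, 7 CCT mRNAs and 5 of 7 cofactors were lower in Ps, and 5 CCT mRNAs, 1 prefoldin mRNA and 1 cofactor were lower in CB, beside 14% of all genes lower in Ps and 8.51% in CB.

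Partners and modifiers of tubulin had calls in both directions, beside 29.1% of all genes higher and 31.2% lower in Ps of siControl and 29.8% and 30.9% in siAPC. Of 8 genes of the gamma-tubulin ring complex, the partners of Tubg1 in seeding microtubules, 2 were lower in Ps of siControl (Tubgcp6 -0.95, SE 0.07, adjusted p = 2.34e-09, and Tubgcp3 -0.44) and 2 higher (Mzt2 0.33 and Tubgcp4 0.31). In siAPC 3 were lower and 2 higher. With siAPC in Ps, where 10.7% of all genes were higher and 11.2% lower, Mzt1 was higher (0.30) and Mzt2 (-0.28) and Tubgcp6 (-0.23) were lower. All 3 genes of tubulin mRNA autoregulation passed in siControl, where the shares above make up most genes of the table: Scaper, the adaptor of TTC5, was higher in Ps (1.16, SE 0.21, adjusted p = 8.13e-05), while Ttc5 (-0.30) and Cnot11 (-0.20), a subunit of the deadenylase that removes the mRNA tail, were lower, and siAPC gave the same calls (1.26, -0.32 and -0.24). Neither fraction had a call for these 3 genes between siAPC and siControl, but with listed reads alone as the scale 1 was higher with siAPC in Ps. Of 6 genes that modify tubulin, Ccdc23, the partner of the detyrosinating enzymes that is now named Svbp, was higher in Ps of siControl (1.01, SE 0.08, adjusted p = 5.48e-09), and the acetylating enzyme Atat1 (-0.78, SE 0.13, adjusted p = 2.57e-05) and the deacetylase Hdac6 (-0.42) were lower. The same 3 genes were called in siAPC (0.97, -0.52 and -0.51), and Atat1 was higher with siAPC in Ps (0.55, SE 0.13, adjusted p = 0.00339). With listed reads alone as the scale, the ring complex had 0 higher and 3 lower in Ps of siControl and 1 higher and 3 lower in siAPC, and the modifiers had 1 higher and 4 lower with either siRNA, beside 47.6% of all genes lower in siControl and 39.3% in siAPC. On that scale siAPC gave 3 higher and 0 lower of the ring complex and 4 higher modifiers in Ps, and 1 higher of the ring complex in CB, beside 22.6% and 8.41% of all genes higher in Ps and CB. Without the 4 GC-trend libraries, the ring complex had 3 higher and 3 lower in Ps with either siRNA, and the modifiers had 2 higher and 3 lower in Ps of siControl. Over all genes 30.7% were then higher and 31.6% lower in Ps of siControl, and 30.1% and 30.9% in Ps of siAPC. Without the same libraries, the ring complex had 0 higher and 1 lower with siAPC in Ps, beside 11.7% and 14% of all genes. Under quantile normalization 1 autoregulation gene was lower in Ps of siControl in place of 2, and the ring complex had 3 higher and 2 lower in Ps of siAPC, beside 30.2% of all genes lower in siControl and 30.3% higher and 31.8% lower in siAPC. No gene of these lists passed the interaction test at adjusted p below 0.05, which few genes of the table passed.

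**Figure D5:**
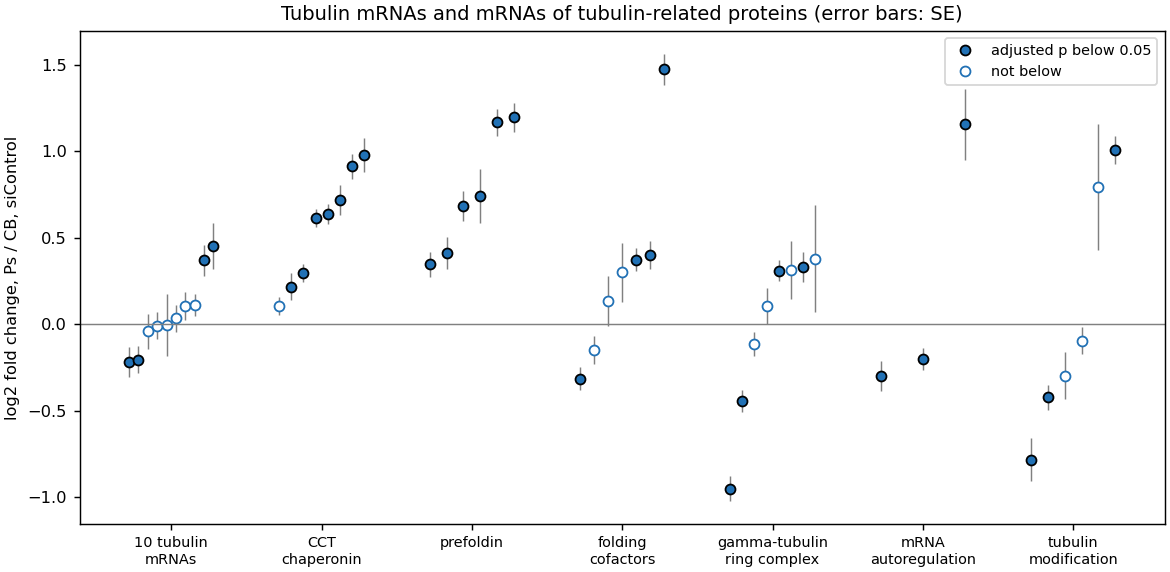
Log2 fold change of Ps over CB in siControl (vertical axis) for the 10 tubulin mRNAs and for genes of 6 lists of tubulin-related proteins (horizontal axis), ordered by value within each list, with error bars of 1 SE, filled where the adjusted p was below 0.05. The tubulin mRNAs lie between -0.22 and 0.45, while all 6 prefoldin mRNAs are above 0 and Tbca reaches 1.47.

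For the 3 tubulin mRNAs with the highest mean, the genes whose log2 values followed most closely over the 16 libraries, out of 10292 genes with a mean of at least 1, were Rnf114 (r = 0.957) and Eif2b2 (0.957) for Tubb5, Rab5c (0.975) and Gm4737 (0.968) for Tuba1b, and Idh2 (0.923) and Nkiras2 (0.923) for Tuba1a. These correlations describe 16 libraries that share group means, scaling and the GC trend.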

How the data were processed

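The authors sequenced stranded total RNA libraries as paired reads, aligned them to mm10 with STAR 2.4.2a, counted reads per gene with Rsubread and normalized with limma 3.26.1 (voom), per the labels and the study's methods. The deposited values are log2 CPM, with 0.5 added to the reads of a gene and the library size adjusted by a factor for scaling, in 16 columns, 1 per library. Solving for reads gave whole numbers within 0.01 for 208240 of 208240 values, and these supplied the read numbers.

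From the log2 values, limma 3.58.1 in R 4.3.3 (lmFit, then eBayes with an intensity trend) was fitted to all 16 libraries (1 mean for each of the 4 groups, no block) over 13015 genes. A call needed a p below 0.05 after Benjamini-Hochberg adjustment, and the script was tested on simulated data. The 10 genes and all lists were chosen with earlier results of these data known. Apc, the tubulin genes and, for each list and comparison, up to 4 genes past the threshold with the largest change were named, plus the 2 genes most like each of 3 tubulin mRNAs. GENCODE M21 (GRCm38) gave positions, exon lengths, GC content and sequences, while the authors used another release, so gene models may differ. The ends of the coding sequences are not reported here. Alternatives were another scaling (total listed reads, quantile normalization), no trend, voom weights, a mean of at least 1, 2 reads added, the replicate block, and leaving out each library or the 4 with a GC trend.

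Replicate numbers in the labels may pair libraries. After group means were removed, libraries with equal numbers correlated by 0.502 on average between siAPC CB and siAPC Ps (lowest 0.416), but by 0.132 between siControl CB and siControl Ps (lowest -0.121), over 10292 genes. The average was 0.345 between siControl Ps and siAPC Ps (lowest 0.162) and -0.034 between siControl CB and siAPC CB (lowest -0.336). Equal numbers were therefore taken as pairs within siAPC and within Ps, but not within siControl or within CB, and the fit with the block is an alternative. The GC-trend libraries have equal numbers within siAPC and within Ps, but not within siControl or within CB. The trend was not removed before correlating, so libraries handled together cannot be told apart here from a shared GC trend.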

Additional observations from a re-analysis of the deposited data

Results flagged for a closer look

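In 4 of 40 combinations of a tubulin mRNA and a group, 1 library stood apart from the other 3 by Dixon's test at the 95% level, where chance gives about 1 in 20. Tubb5 was lowest in siAPC CB replicate 2 (9.931 log2 CPM), Tubb6 in siControl Ps replicate 2 (6.041) and Tubg1 in siControl CB replicate 3 (5.717), and all 3 of these libraries were among those whose values fell with GC content. Tubb2b was highest in siAPC Ps replicate 4 (4.09). The part of GC content in these values was not tested.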

How the results depend on the processing

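Scaling and single libraries decided most changes; the cause was not tested. Tubb6 and Tubb5 in siAPC against siControl in CB, Tubb6 in Ps, and Tubb4b, Tubb2a and Tubg1 in Ps against CB of siAPC kept direction and call in all 24 alternatives. The replicate block changed no call (2 higher and 2 lower in Ps against CB of siControl, 0 and 4 in siAPC). The interaction gave 0 calls throughout. Tubb3 rested on 70 to 184 reads per library.

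With total listed reads as the scale, Ps against CB had 0 higher and 7 lower in siControl and 7 lower in siAPC (47.6% and 39.3% of all genes lower), and siAPC against siControl in Ps had 0 lower. Values that changed sign were -0.26 (Tuba1a), -0.19 (Tubb5) and -0.19 (Tubb6) for Ps against CB in siControl, and -0.13 (Tubb5) in siAPC, all 4 called, yet above the medians of all genes on that scale (-0.30 and -0.14). They were 0.056 (Tubb5), 0.017 (Tubb6) and 0.024 (Tubg1) for the interaction, and 0.10 (Tuba1a), 0.12 (Tuba1b), 0.085 (Tuba1c), 0.085 (Tubb3) and 0.062 (Tubg1) for siAPC in Ps, all below the medians of all genes (0.15 and 0.14). Quantile normalization gave 1 higher in Ps of siAPC and 0 lower with siAPC in Ps (30.3% and 10.8% of all genes), and changed the sign of Tuba1a (-0.042), Tubb5 (-0.19, called) and Tubb2a (0.033) in Ps against CB of siControl, Tubb5 (-0.48, called) and Tubb6 (0.076) in siAPC, and Tuba1a (0.022) and Tuba1b (0.052) with siAPC in Ps. With no intensity trend 1 was lower in Ps of siControl, and 1 was higher and 0 lower with siAPC in Ps. No share of all genes is given for that fit, so these counts are not set against a background. Without the 4 GC-trend libraries 1 was higher in Ps of siAPC, beside 30.1% of all genes, and Tubb2a (0.040) and Tubb3 (0.10) changed sign in siControl. Tubb3 also changed sign there with voom weights (0.016) and 2 reads added (0.00070).

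With each library left out in turn, 0 to 2 were lower in Ps of siControl, 0 to 1 higher in Ps of siAPC, and 1 to 2 higher and 0 to 2 lower with siAPC in Ps. Tubb6 was called higher in Ps of siControl in 1 of these 16 fits, and Tuba1c lower in Ps of siAPC in 12. No share of all genes is given for these fits, so the counts are not set against a background. Values that crossed 0 ranged, for Ps against CB in siControl, from -0.025 to 0.080 (Tuba1a), -0.098 to 0.021 (Tuba1c), -0.050 to 0.065 (Tubb2a) and -0.13 to 0.14 (Tubb3), and in siAPC from -0.010 to 0.050 (Tubb5) and -0.049 to 0.019 (Tubb6). With siAPC in CB they ranged from -0.016 to 0.042 (Tubb2a) and -0.038 to 0.060 (Tubg1), and in Ps from -0.11 to 0.024 (Tuba1b), -0.15 to 0.022 (Tuba1c), -0.22 to 0.056 (Tubb3) and -0.035 to 0.094 (Tubb4b). Of 36 shares of the alpha- and beta-tubulin genes followed here, 35 moved by more than 1 SD when taken per read, which weights long transcripts more.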
